A study of Danio rerio with 32 samples.

Results

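The editing sites in the 3′-UTR windows of fgfr1a, dusp4 and extl3, 3 genes of the fibroblast growth factor (FGF) pathway, were followed through early zebrafish development. The members were 3 of the 765 genes for which the study listed a 3′-UTR window, and their windows held 100 of the 12129 A>G or T>C sites found in listed windows at any stage. Over the whole genome the lists held 30154 such sites among 44007 sites of any change. The window of fgfr1a held 80 of the 100 sites, that of dusp4 held 12 and that of extl3 held 8.

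Sites of RNA editing were found by setting the RNA of pooled wild-type (ABTL) embryos against the genomic DNA of their own parents, 1 male and 1 female, at the 16-cell stage, at 3.5 hours post fertilization (hpf) and at 5.3 hpf. Each of the 3 stages was 1 library of uninjected whole embryos, so there was no spread between replicates. Expression was compared at 12 hpf in offspring of a separate mating, among uninjected controls, embryos with Adar knockdown (KD) by 1 ng of an antisense morpholino oligonucleotide that blocks the translation of adar, and embryos overexpressing Adar (OE) after injection of 50 pg of adar mRNA, with 3 libraries of 20 pooled embryos per group. An injected oligonucleotide or mRNA reaches all cells of the embryo and is diluted as the embryo grows, and the controls were not injected with a control oligonucleotide or mRNA by the labels. By the methods of the study the pools at 12 hpf were siblings, born to a separate pair of parents. The errors at 12 hpf therefore measure the spread between pools of siblings, which may be technical, and hold no spread between parents.

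FGF ligands are secreted proteins that bind receptor tyrosine kinases together with heparan sulfate chains on the cell surface, and the receptors pass the signal through Ras to the MAP kinase Erk. Targets of the pathway include its own inhibitors, among them phosphatases that switch MAP kinases off. In the early zebrafish embryo FGF signals take part in dorsoventral patterning, in the formation of mesoderm and in brain patterning. Fgfr1a is a receptor of the pathway, Dusp4 is a phosphatase of MAP kinases and Extl3 is a glycosyltransferase that takes part in the synthesis of heparan sulfate. Adar is an enzyme that changes adenosine to inosine in double-stranded RNA. Reverse transcription places a C opposite inosine when the library is made, so a G is inferred there in the transcript. An edited A therefore appeared as A>G on the forward strand and as T>C for a gene on the reverse strand, and all 3 genes lie on the reverse strand.

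For each site the lists gave the editing frequency, that is the share of RNA reads with the changed base, and the lowest frequency listed was 20%. Coverage was not listed, so single frequencies stand without an interval, their depth being unknown. A site missing at a stage may be unedited there, edited in fewer than 20% of reads, or covered by too few reads, and these cannot be told apart. Sites of these changes numbered 19439, 19108 and 17151 in the lists of the 16-cell stage, 3.5 hpf and 5.3 hpf, and the 765 windows held 9033, 8909 and 7012 of them, with a site counted again where windows overlap. Intervals on shares of sites are 95% Wilson intervals that cover counting error only, and neighbouring sites are often read from the same RNA molecules.

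The window of fgfr1a was among the windows with the most sites at every stage. It spans 5000 bp of chromosome 8 from 51443031 to 51448030 in the GRCz10 assembly. At the 16-cell stage 67 A>G or T>C sites were listed there, against 66 at 3.5 hpf and 54 at 5.3 hpf. By number of sites the window ranked 12th at the 16-cell stage, 14th at 3.5 hpf and 15th at 5.3 hpf among the 765 windows. Among windows with at least 2 sites, which had a median of 8 sites at the 16-cell stage, 8 at 3.5 hpf and 7 at 5.3 hpf, fgfr1a had more sites than 97.9%, 97.6% and 97.3% of them. Every site was a T>C change, as an edited A in a transcript of the reverse strand would give. Other changes were few: none at the 16-cell stage, 2 at 3.5 hpf and 1 at 5.3 hpf. The share of A>G or T>C among all listed changes was thus 100% (interval 94.6% to 100%), 97.1% (89.9% to 99.2%) and 98.2% (90.4% to 99.7%). Including 5000 bp on either side of the window added no site at any stage.

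The high rank of fgfr1a lay in the number of its listed sites and not in their listed frequency. Listing required at least 10 reads and a changed base in at least 20% of RNA reads. The number of listed sites thus depends also on coverage, which is unknown, and the cut at 20% narrows the range of frequencies. The median frequency in fgfr1a was 38.5% at the 16-cell stage, 37.0% at 3.5 hpf and 36.0% at 5.3 hpf. The sites of all other windows had medians of 37.1%, 37.2% and 36.0%. Frequencies in fgfr1a ran from 20.0% to 92.9% at the 16-cell stage, from 20.0% to 100% at 3.5 hpf and from 21.1% to 77.8% at 5.3 hpf. Sites at 50% or more numbered 22 of 67 (32.8%, interval 22.8% to 44.7%), 21 of 66 (31.8%, 21.8% to 43.8%) and 13 of 54 (24.1%, 14.6% to 36.9%) in the order of the stages. In the other windows such sites made up 33.2%, 33.1% and 30.8%.

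The sites most often edited in fgfr1a were edited in most reads at each stage. The site with the highest mean frequency, at position 51446055, was listed at 92.9%, 100% and 77.8%. The next, at 51445481, was at 89.5%, 94.7% and 77.8%. The site at 51446678 was at 73.2%, 72.0% and 70.0%, the steadiest of the 5 highest. The remaining 2 of these 5 moved more. The site at 51446050 was listed at 78.6%, 76.5% and 58.8%, and the site at 51445489 at 66.7%, 85.0% and 56.5%.

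**Figure D1:**
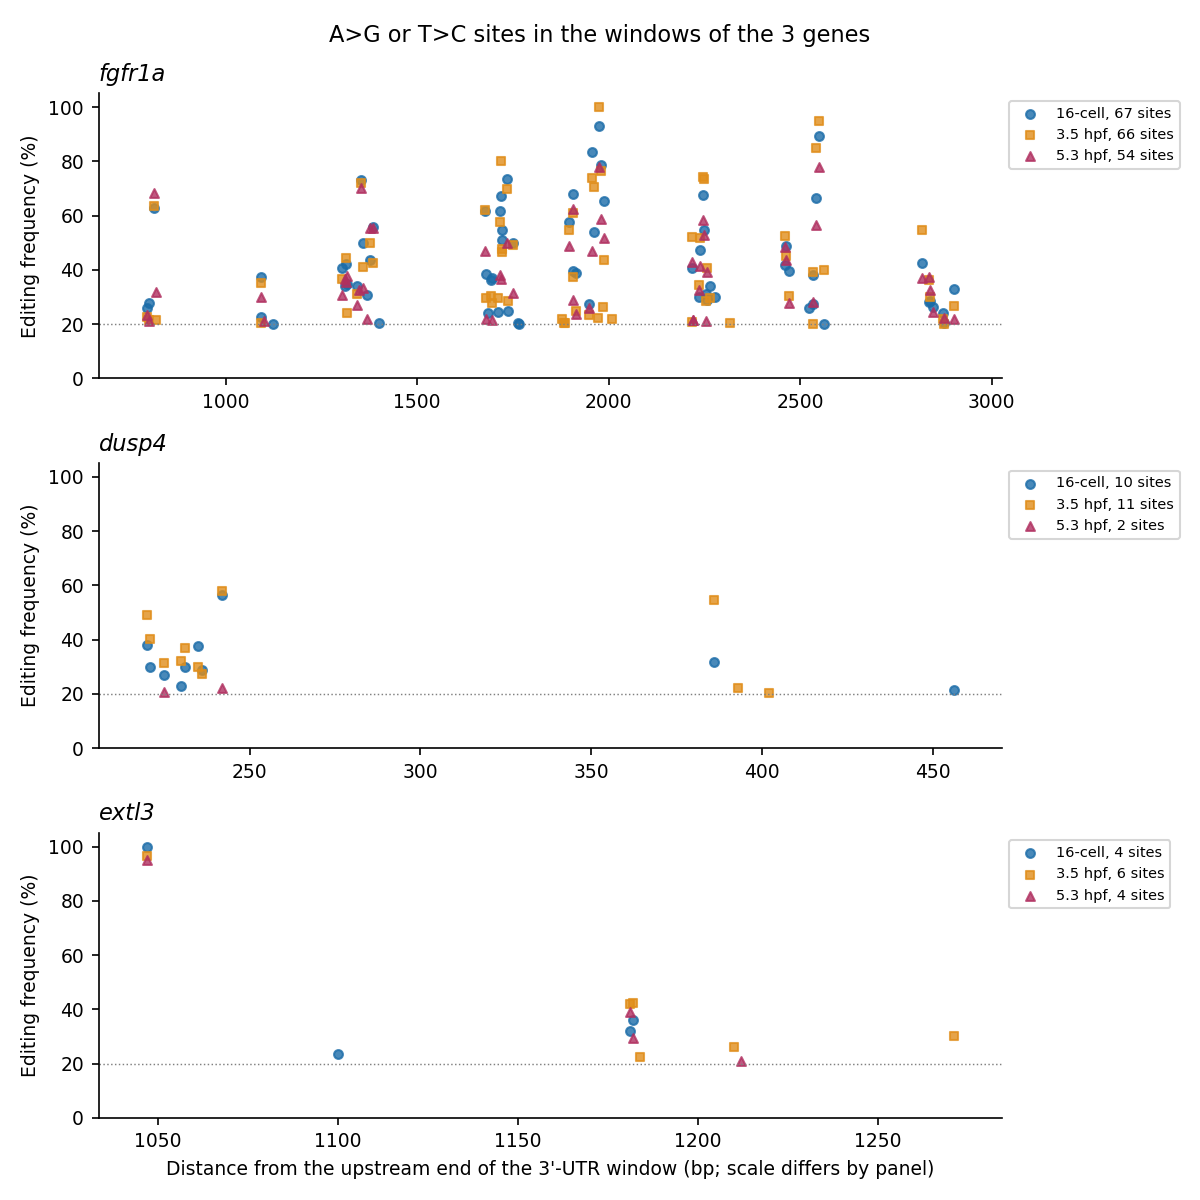
Editing frequency (%) of each A>G or T>C site in the windows of fgfr1a, dusp4 and extl3 against its distance in bp from the upstream end of the window, with circles for the 16-cell stage, squares for 3.5 hpf and triangles for 5.3 hpf (1 library each), a dotted line at 20%, the lowest listed frequency, and a different horizontal scale in each panel. The sites of fgfr1a fall into separate groups with high and low frequencies side by side, dusp4 keeps 2 of its sites at 5.3 hpf, both near 20%, and extl3 has 1 site above 95% at every stage.

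The sites of fgfr1a lay in short runs along the window. The plot of frequency by distance shows them as narrow columns with empty stretches between them. All 80 sites fell within 2107 bp, from 795 to 2901 bp downstream of the upstream end of the window, and no A>G or T>C site was listed in the remaining stretches on either side. The windows of all 3 genes were 5000 bp long, and where the 3′-UTR ends within them was not examined. Stretches without sites may thus lie outside the transcript. The median distance between neighbouring sites was 8 bp, 53 of the 79 distances were at most 10 bp, and 16 were of 1 bp, that is at adjacent bases. Where both bases of an adjacent pair were listed at the 16-cell stage, the upstream base had the higher frequency in 8 pairs and the downstream base in 4. At 3.5 hpf these numbers were 8 and 6, and at 5.3 hpf 6 and 2, with 1 pair equal. Many of these pairs were the same at several stages, so the counts are not independent.

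With sites no more than 100 bp apart taken as a group, fgfr1a had 8 groups. They held 4, 4, 12, 15, 16, 13, 9 and 7 sites from the upstream to the downstream end, each over 24 to 131 bp, and were separated by 113 to 278 bp. The densest was the fourth, with 15 sites in 88 bp at 1678 to 1765 bp, or 17.0 sites per 100 bp. The fifth, at 1878 to 2008 bp, held the most sites, 16, and the highest frequency, that of 51446055. Of these 16 sites 10 were listed at the 16-cell stage with a median of 61.5%, all 16 at 3.5 hpf with a median of 31.9%, and 9 at 5.3 hpf with a median of 48.9%. The lower median at 3.5 hpf came with 6 sites listed at that stage only, at 20.4% to 26.3%.

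Many fgfr1a sites were listed at more than 1 stage. Of its 80 sites 46 were listed at every stage, a share of 57.5% (interval 46.6% to 67.7%), against 4531 of 12029 sites in the other windows, 37.7% (36.8% to 38.5%). The study had picked out fgfr1a as edited at every stage, so a high share was in part built into this choice. The other windows include some with sites at 1 stage only, such as that of fzd7b. The difference between these shares is therefore no test of fgfr1a. From the 16-cell stage 57 of 67 sites (85.1%, interval 74.7% to 91.7%) were listed again at 3.5 hpf, and 49 of 67 (73.1%, 61.5% to 82.3%) at 5.3 hpf. In the other windows 57.5% of the sites of the 16-cell stage were listed at 5.3 hpf (5010 of 8720, interval 56.4% to 58.5%). Window by window, however, the share of fgfr1a was not unusual: among the 474 windows with at least 4 sites at the 16-cell stage it was higher in 38.4% and lower in 61.4%, with a median of 60.0%. Sites that were missing later had been listed at lower frequencies. Their median at the 16-cell stage was 24.7% in the 18 sites missing at 5.3 hpf, against 41.9% in the 49 sites listed there. Of the 47 sites at 30% or more at the 16-cell stage 40 were listed at 5.3 hpf, 85.1% (interval 72.3% to 92.6%), and of the 20 sites under 30% there were 9, 45.0% (25.8% to 65.8%). In the other windows 66.5% of the sites at 30% or more were listed at 5.3 hpf. As no frequency under 20% was listed, a site near 20% can drop out through counting error alone. These contrasts between low and high sites thus follow in part from the way sites were listed. The frequencies of 1 library each were set side by side here, and no test between stages was possible.

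Most of the 46 sites of fgfr1a listed at every stage had a lower frequency at 5.3 hpf than before. Their median was 42.4% at the 16-cell stage, 44.0% at 3.5 hpf and 37.5% at 5.3 hpf. From the 16-cell stage to 5.3 hpf 35 sites were lower and 11 higher, with a median change of -7.24 percentage points (quartiles -14.2 and -0.56). The same measure in the 4531 sites of other windows was -1.95 points (quartiles -9.52 and 4.90), and 2594 of them were lower. Those sites are pooled over many transcripts, while the sites of fgfr1a come from a single window. The spread of this change between windows was not computed, so whether the decrease in fgfr1a is unusual for a window was not tested. From the 16-cell stage to 3.5 hpf the sites of fgfr1a were divided more evenly, with 27 lower and 19 higher and a median of -2.12 points. The order of the sites was largely kept. Across these 46 sites, which share their 3 libraries and in part their reads, Pearson's r was 0.91 for the 16-cell stage against 3.5 hpf, 0.85 for 3.5 against 5.3 hpf, and 0.83 for the 16-cell stage against 5.3 hpf.

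**Figure D2:**
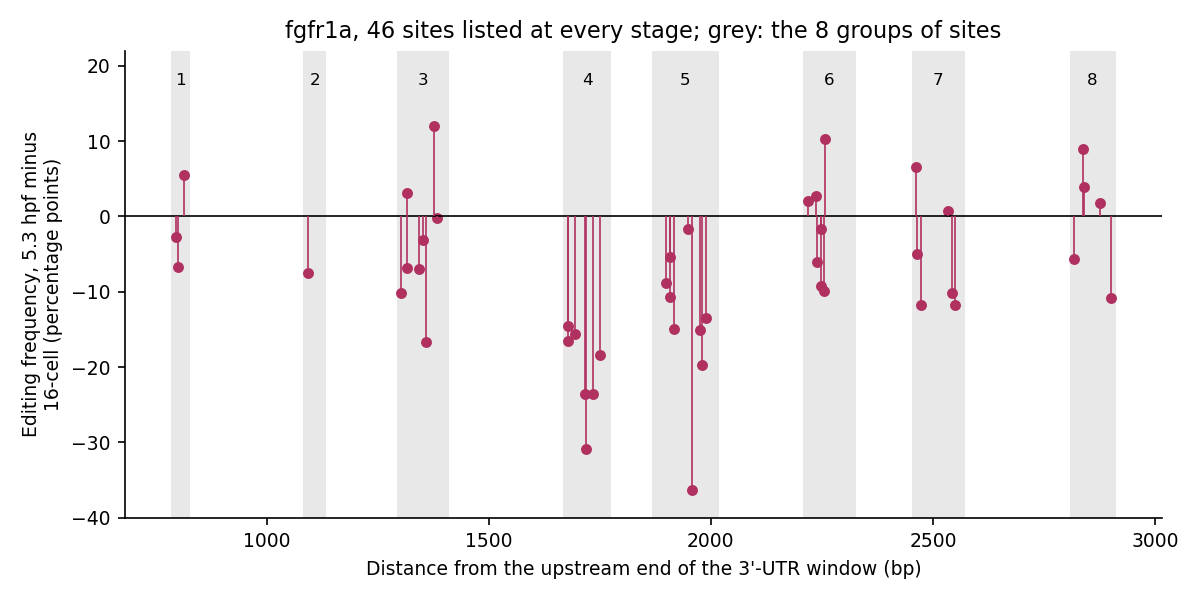
Change in editing frequency from the 16-cell stage to 5.3 hpf, in percentage points, for the 46 sites of fgfr1a listed at every stage, against the distance in bp from the upstream end of the window, with 1 point per site, 1 library per stage and the 8 groups of sites in grey. All 7 such sites of the fourth group and all 9 of the fifth lie below 0, and the other groups with more than 1 such site have points on both sides.

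The largest decreases lay in the fourth and the fifth group, at 1678 to 2008 bp, as the plot of changes along fgfr1a shows. In the fourth group all 7 sites listed at every stage were lower at 5.3 hpf, with a median change of -18.4 points, and in the fifth all 9 were lower, with a median of -13.5 points. The other 6 groups had medians between -7.57 and 1.81 points. The 3 largest single decreases were in these groups. The site at 51446073 was listed at 83.3%, 73.7% and 47.1%, the site at 51446313 at 67.4%, 80% and 36.6%, and its neighbour at 51446314 at 61.7%, 57.8% and 38.1%. The 3 largest increases were smaller than these decreases. The site at 51446655, in the third group, was listed at 43.5%, 50.0% and 55.6%, the site at 51445775, in the sixth, at 28.9%, 40.7% and 39.2%, and the site at 51445193, in the eighth, at 28.2%, 36.4% and 37.2%. Coverage at these sites was not listed, so the counting error of a change at a single site is unknown. A site listed at every stage had to stay at 20% or more, so a site with a low start could fall little. Such sites started at 37.0% to 73.6% in the fourth group and 27.6% to 92.9% in the fifth. Those of the eighth started at 20.4% to 42.4%. High starts also lay elsewhere, and the site at 51445481, in the seventh group, changed by -11.7 points from 89.5%. Whether groups differ at like starting levels was not tested.

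The window of dusp4 held fewer sites, and most were no longer listed at 5.3 hpf. It spans 5000 bp of chromosome 21 from 20072374 to 20077373 in GRCz10. There were 10 sites at the 16-cell stage, 11 at 3.5 hpf and 2 at 5.3 hpf, all T>C, and no other change was listed at any stage. The window ranked 265th, 249th and 463rd by number of sites in the order of the stages. Its median frequency was 29.9% at the 16-cell stage, 32.1% at 3.5 hpf and 21.5% at 5.3 hpf. The medians of 26.0%, 34.6% and 2.51% of the windows with at least 2 sites were lower, in the same order.

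The sites of dusp4 lay close to the upstream end of the window, in a dense group and a sparse one. The dense group held 8 sites in 23 bp, at 220 to 242 bp, or 34.8 sites per 100 bp. All 8 were listed at both the 16-cell stage and 3.5 hpf. The site at 20077132 was the highest of the gene, at 56.2% at the 16-cell stage, 58.0% at 3.5 hpf and 22.2% at 5.3 hpf. The only other site listed at 5.3 hpf was 20077149, at 27.0%, 31.5% and 20.8%. Both were thus close to the lowest listed frequency at 5.3 hpf.

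The other 6 sites of the dense group were between 23.0% and 49.0% at the earlier stages. The site at 20077138 was at 28.8% at the 16-cell stage and 27.3% at 3.5 hpf, and the adjacent site at 20077139 at 37.5% and 30%. The site at 20077143 was at 29.8% and 37.0%, and its neighbour at 20077144 at 23.0% and 32.1%. The site at 20077153 was at 30% and 40.4%, and its neighbour at 20077154 at 38.1% and 49.0%. The lower sites of these 3 adjacent pairs at the 16-cell stage were also the lower ones at 3.5 hpf.

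The sparse group of dusp4 held 4 sites at 386 to 456 bp. The site at 20076988 was at 31.9% at the 16-cell stage and at 54.5% at 3.5 hpf, the largest increase of the gene, with 22.6 points. The remaining sites were each listed at 1 stage: 20076918 at the 16-cell stage, at 21.4%, and 20076972 and 20076981 at 3.5 hpf, at 20.4% and 22.2%. Across both groups 7 of the 9 sites shared by the 16-cell stage and 3.5 hpf were higher at 3.5 hpf, with a median change of 7.21 points. The other windows had a median change of 0.32 points between these stages, with 3068 of 6602 sites lower. The 9 sites lie close together in a single window, and the spread of this change between windows was not computed.

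Of the 10 dusp4 sites of the 16-cell stage 2 were listed at 5.3 hpf, a share of 20.0% (interval 5.67% to 51.0%). In 76.6% of the 474 windows with at least 4 sites at the 16-cell stage this share was higher, and the median share was 60.0%. The missing sites of dusp4 included those at higher frequencies. Of the 5 sites at 30% or more at the 16-cell stage 1 was listed at 5.3 hpf, and among the 9 sites of 3.5 hpf missing at 5.3 hpf the highest had been at 54.5%. Fewer edited molecules and fewer reads of the window at 5.3 hpf cannot be told apart, because the coverage was not listed.

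The window of extl3 held the fewest sites of the 3 genes. It spans 5000 bp of chromosome 20 from 50133025 to 50138024 in GRCz10. There were 4 sites at the 16-cell stage, 6 at 3.5 hpf and 4 at 5.3 hpf, and by number of sites the window ranked 428th, 345th and 357th. Of the 8 sites of any stage 7 were T>C. The remaining site, at 50136754, was an A>G change listed at 3.5 hpf at 30%. An edited A on the strand of the gene would not give this change. In 641 of the 765 windows (83.8%) every site had the change that an edited A on the strand of the gene would give.

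A single site of extl3 was near complete at each stage. The site at 50136978 was listed at 100%, 96.6% and 95.1%, far above every other site of the gene. The adjacent sites at 50136843 and 50136844 were the only others listed at every stage. The site at 50136843 was at 36.2%, 42.2% and 29.3%, and the site at 50136844 at 32.1%, 42.1% and 39.0%. The remaining sites were each listed at 1 stage and at lower frequencies. The site at 50136925 was at 23.4% at the 16-cell stage, 50136815 and 50136841 were at 26.2% and 22.5% at 3.5 hpf, and 50136813 was at 20.97% at 5.3 hpf. All 8 sites lay within 225 bp, at 1047 to 1271 bp from the upstream end of the window, with 3.56 sites per 100 bp.

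In extl3 alone among the 3 windows, changes other than A>G or T>C were about as many as the editing sites. They numbered 3 at the 16-cell stage, 7 at 3.5 hpf and 4 at 5.3 hpf, and A>G or T>C made up 57.1% (interval 25.05% to 84.2%), 46.2% (23.2% to 70.9%) and 50.0% (21.5% to 78.5%) of the changes. Over the whole genome 30154 of the 44007 listed sites of any change and stage were A>G or T>C. These counts join all stages and include sites outside the listed windows, so they are no like base for extl3. The share over the other listed windows was not computed. At 447 to 449 bp of the extl3 window, 3 adjacent bases were listed at every stage. The A>T change at 50137576 was at 69.4%, 63.6% and 54.3%, the C>T change at 50137577 at 26.1%, 30.5% and 38.9%, and the A>T change at 50137578 at 35.9%, 31.6% and 42.4%. An A>C change at 50137570 was listed beside them at 3.5 hpf and 5.3 hpf, at 21.3% and 25.5%. The A>G site at 50136754 likewise had other changes close by at 3.5 hpf. An A>C change was listed at the adjacent base 50136755 at 35.0%, another at 50136765 at 24.0%, and a C>A change at 50136770 at 21.9%. Whether these changes and the near-complete T>C site differ in origin from the other sites of extl3 was not tested.

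**Figure D3:**
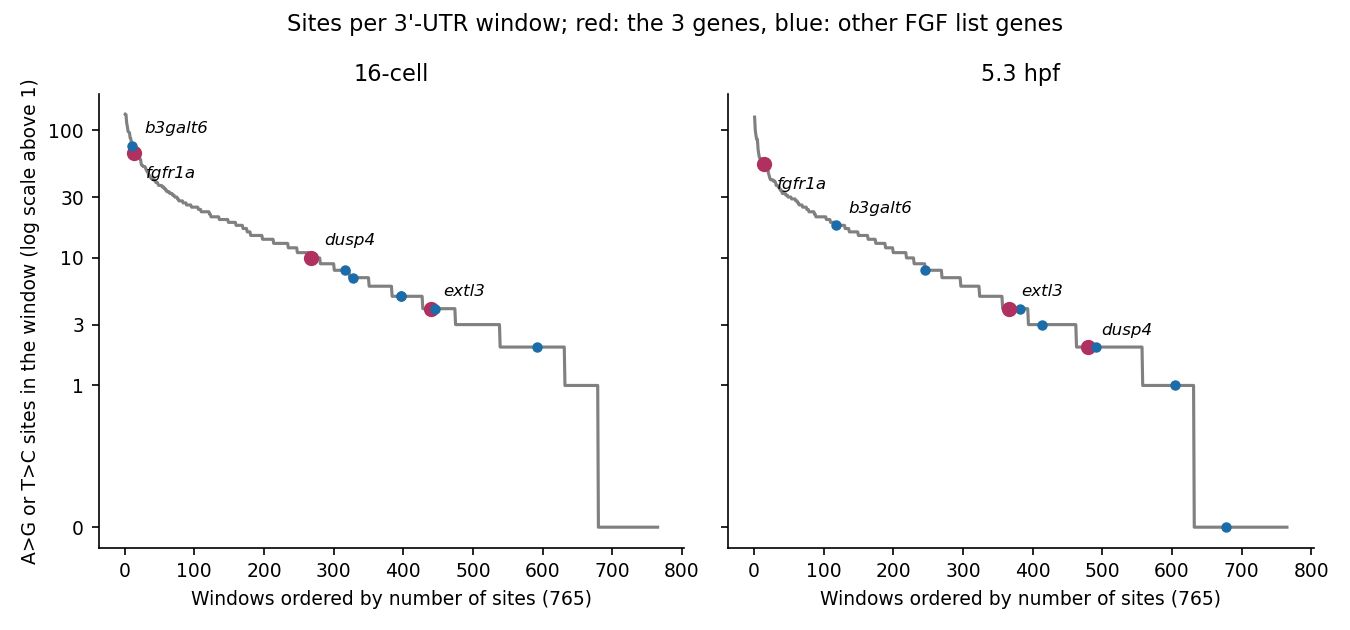
Number of A>G or T>C sites in each of the 765 windows, ordered from most to fewest, at the 16-cell stage and at 5.3 hpf (1 library each), on a vertical scale that is logarithmic above 1, with fgfr1a, dusp4 and extl3 in red and 7 other genes of the FGF lists in blue. Between these stages fgfr1a moves from 67 to 54 sites and stays near the top, extl3 stays at 4 sites, and dusp4 falls from 10 to 2 sites.

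The 3 genes were set beside the rest of the pathway with lists of 97 FGF genes. A listed window was found for 10 of them. Over all genes 765 had a listed window, and the expression comparisons held 32519 gene IDs. The 10 were 1 of 7 receptors (fgfr1a), 3 of 23 signal transducers, 1 of 10 MAP kinase phosphatases (dusp4) and 5 of 28 genes of heparan sulfate synthesis (extl3 among them). No window was found for 15 ligands, 9 feedback inhibitors and 6 target transcription factors. As the 3 genes were chosen with earlier results of these data known, the 10 include genes picked beforehand. Whether the lists held more windows than other genes was not tested. In number of sites fgfr1a was nearest to b3galt6, which makes the linker on which heparan sulfate chains are built, as the plot of windows in order of sites shows. The window of b3galt6 held 76 sites at the 16-cell stage, 66 at 3.5 hpf and 18 at 5.3 hpf, with 14 of its 93 sites at every stage. At 5.3 hpf fgfr1a thus held 54 sites and b3galt6 18, after similar numbers at the earlier stages. The heparan sulfate polymerase gene ext1b had 7, 8 and 8 sites. The sulfotransferase gene hs6st1a had 5, 5 and 0, the epimerase gene glceb 4, 2 and 2, and the exchange factor gene sos1 8, 1 and 4, with none of its 13 sites at every stage. The adaptor gene gab1 had 5, 4 and 3 sites, and the phosphatase gene ptpn11a 2, 1 and 1.

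The question at 12 hpf was whether transcript levels of the 3 genes differed after the injections meant to lower or raise Adar. For this the log2 fold changes, standard errors and adjusted p-values of the authors' deposited DESeq2 tables were used (Wald test with Benjamini-Hochberg adjustment), and calls were made at adjusted p-values below 0.05. The KD and OE comparisons share their 3 control libraries, and the table of OE against KD uses the same libraries again. Reads assigned to genes made up 2.69% to 2.85% of the mean normalized counts in these tables, and counts per gene were low. Over all genes, those called lower had median mean counts of 111, 86.7 and 64.9 in KD, OE and OE against KD, and those called higher 25.9, 8.13 and 22.9. As direction thus went with expression level, each fold change of the 3 genes is also set beside the median of the 500 genes nearest in mean normalized count.

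None of the 3 genes was called in any comparison. Over all genes with an adjusted p, 6.2% were called in KD against control (2.39% higher, 3.82% lower), 20.9% in OE against control (14.2% higher, 6.73% lower) and 10.5% in OE against KD (3.84% higher, 6.62% lower). The gene adar itself was not called either. Its log2 fold change was -0.59 (SE 0.47) in KD, 0.64 (SE 0.96) in OE and 1.23 (SE 0.74) in OE against KD. An oligonucleotide that blocks translation need not lower the transcript, so the first of these values is no check of the knockdown. The value in OE against control had a 95% interval of -1.24 to 2.51 and an adjusted p of 0.65 in the Wald test. A higher level of the adar transcript after injection of adar mRNA was thus not shown by these values.

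Of the zebrafish FGFR1 genes there were 2 in the tables, and the table of gene names used here gives both as FGFR1 and does not tell which is fgfr1a, so both are given. ENSDARG00000011027 had the higher counts, with means of 64.8, 78.6 and 56.8 normalized reads in the tables of KD, OE and OE against KD. Its log2 fold change in KD was -1.02 (95% interval -1.84 to -0.19), with a p of 0.016 before and 0.14 after the adjustment of DESeq2. In OE it was -0.31 (-0.9998 to 0.38), with an adjusted p of 0.54. In OE against KD it was 0.71 (0.03 to 1.38), with a p of 0.040 before and 0.17 after adjustment. The intervals of the first and the last comparison thus left out 0, while neither passed the test over all genes. Genes of like mean count had medians of -0.29 in KD, -0.65 in OE and -0.32 in OE against KD. Relative to these the gene was at -0.73 (interval -1.55 to 0.10) in KD, 0.34 (-0.35 to 1.03) in OE and 1.03 (0.36 to 1.70) in OE against KD. Its direction in OE thus depended on this reference, and its interval in KD included 0 under it.

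The second FGFR1 gene, ENSDARG00000011190, had means of 13.5, 15.02 and 10.1 normalized reads. Its log2 fold change was -1.09 (interval -2.38 to 0.20) in KD, -0.64 (-1.77 to 0.49) in OE and 0.45 (-0.88 to 1.77) in OE against KD, with adjusted p-values of 0.39, 0.42 and 0.71 in DESeq2. Genes of like mean count had medians of 0.22, 0.46 and 0.57 in the same order. Relative to these the gene was at -1.31 (interval -2.60 to -0.02) in KD, -1.11 (-2.23 to 0.02) in OE and -0.12 (-1.45 to 1.21) in OE against KD. The relative interval in KD thus left out 0 narrowly, but the value did not pass after adjustment over all genes. With intervals of this width the level of the second gene was poorly determined.

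**Figure D4:**
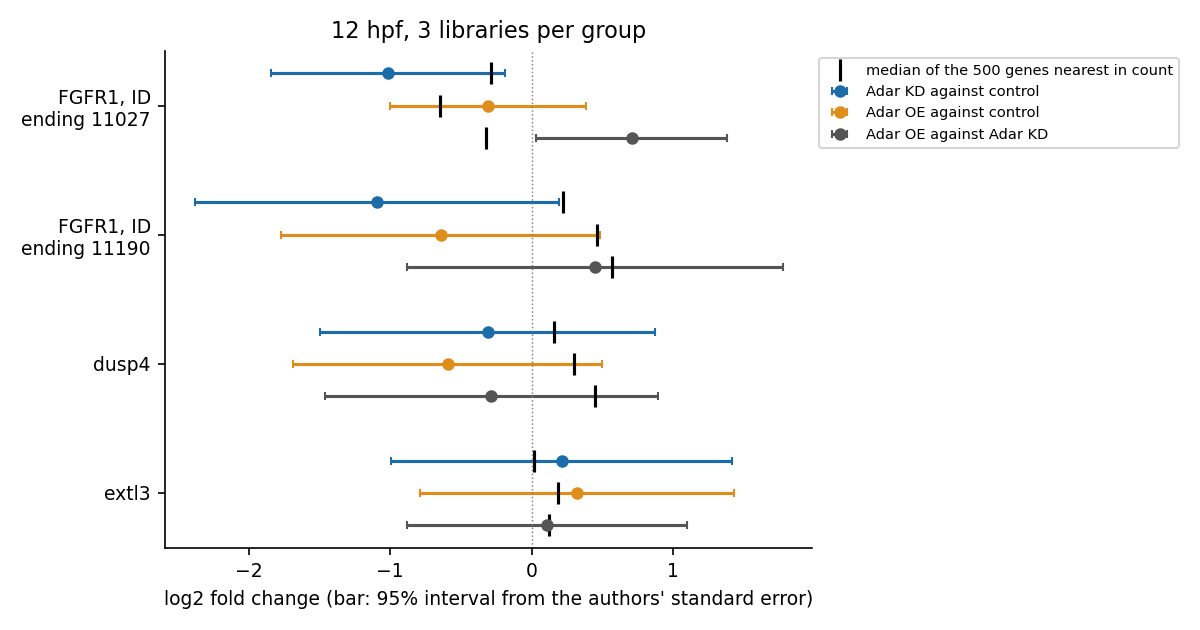
Log2 fold change at 12 hpf of both FGFR1 genes, dusp4 and extl3 in KD against control (blue), OE against control (orange) and OE against KD (grey), 3 libraries per group, with 95% intervals from the authors' standard errors as bars and the median of the 500 genes nearest in mean normalized count as black ticks. The interval of every value of dusp4 and extl3 includes 0, and those of the FGFR1 gene ENSDARG00000011027 leave out 0 in KD and in OE against KD.

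The counts of dusp4 were low, with means of 16.7, 15.4 and 13.5 normalized reads. Its log2 fold change was -0.31 (interval -1.50 to 0.87) in KD, -0.59 (-1.69 to 0.50) in OE and -0.28 (-1.46 to 0.90) in OE against KD. The adjusted p-values of DESeq2 were 0.86, 0.45 and 0.80. The gene lay below the genes of like count in each comparison, which had medians of 0.16, 0.30 and 0.44, by 0.47, 0.89 and 0.73 on the log2 scale, and the 95% interval of each of these differences included 0.

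The values of extl3 were all above 0, with intervals on both sides of it, as the plot of fold changes at 12 hpf shows. Its means were 18.1, 18.8 and 20.2 normalized reads. Its log2 fold change was 0.21 (interval -0.99 to 1.42) in KD, 0.32 (-0.79 to 1.43) in OE and 0.11 (-0.88 to 1.10) in OE against KD, with adjusted p-values of 0.91, 0.71 and 0.92 in DESeq2. A doubling, 1 on the log2 scale, lay inside the intervals of extl3 in all 3 comparisons. Genes of like count had medians of 0.02, 0.18 and 0.12 in the same order. Relative to these extl3 was at 0.19 in KD, 0.13 in OE and -0.016 in OE against KD, each with an interval that included 0.

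The wider FGF lists were then counted in the same tables. Of the 94 gene IDs matched to the lists, 68 had an adjusted p in KD, of which 1 was higher and 2 lower (4.41% called, against 6.2% of all genes). In OE 8 were higher and 3 lower of 91 (12.1%, against 20.9%), and in OE against KD 4 were higher and 2 lower of 69 (8.70%, against 10.5%). The median log2 fold change of the lists was -0.11 in KD, 0.37 in OE and 0.27 in OE against KD, beside 0.03, 0.79 and 0.10 over all genes. Set against genes of like count, the medians of the lists were -0.036, 0.011 and 0.00038 in the same order. Those of all genes were -0.00079, 8.9e-05 and -0.0018. With this reference the medians of the lists thus lay close to those of all genes. Single lists are small, and their shares lay on both sides of those of all genes. Of the 7 receptors 3 were called in OE against KD (42.9%), and of the 6 target transcription factors 1 was called in each comparison (16.7%). Differences between these shares were not tested.

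Among the receptors, to which fgfr1a belongs, fgfr4 fell in OE (log2 fold change -1.33, SE 0.26) and in OE against KD (-1.19, SE 0.29), and both genes of the kinase-free receptor-like protein FGFRL1 rose in OE against KD, by 2.07 (SE 0.68) and 1.90 (SE 0.63) on the log2 scale. Among the 9 MAP kinase phosphatases tested in OE, the list of dusp4, dusp7 rose by 2.32 (SE 0.87) on the log2 scale and dusp6, a feedback inhibitor of the pathway, had a value of -1.02 (SE 0.33) and was called lower. In heparan sulfate synthesis, the list of extl3, the 6-O-sulfotransferase gene hs6st2 rose in KD by 1.01 (SE 0.31) on the log2 scale and was called lower in OE (-0.95, SE 0.36) and in OE against KD (-1.96, SE 0.31). In OE the related gene extl2 rose by 2.60 (SE 0.88), a gene of the endosulfatase SULF2 by 2.75 (SE 0.73) and a gene of the N-sulfotransferase NDST1 by 2.54 (SE 0.92), all on the log2 scale. Their mean counts were only 8.70, 12.7 and 8.10 normalized reads, and genes of like count had medians of 1.08, 0.64 and 1.28. For dusp7 the mean count was 8.32 and this median 1.18. Relative to genes of like count, dusp6 was at -0.19 and hs6st2 at -0.27 in OE.

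Elsewhere in the pathway, frs3 and sos1, which pass the signal from the receptor to Ras, rose in OE by 3.45 (SE 1.04) and 1.75 (SE 0.53) on the log2 scale, the MEK gene map2k1 was called lower in KD (-1.04, SE 0.30), and the Raf kinase gene braf rose in OE against KD by 1.46 (SE 0.50). A gene of the ligand FGF18 rose in OE by 2.84 (SE 0.78) on the log2 scale, while the other gene of this name was not called. Of the target genes tbx16 was called lower in KD (-1.53, SE 0.48), and tbx6 rose in OE by 2.43 (SE 0.48) and in OE against KD by 2.30 (SE 0.46), again as log2 values. Of these 20 calls 19 could be set against the 500 genes of like count, map2k1 being among the outermost 500 genes by mean count, and 5 of the 19 had an adjusted p under 0.05 relative to them: those of hs6st2 in KD and in OE against KD, of tbx6 in OE and in OE against KD, and of sos1 in OE.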

How the data were processed

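Whole-embryo RNA was sequenced in 1 library each at the 16-cell stage, 3.5 hpf and 5.3 hpf, with genomic DNA of both parents, and in 3 libraries each of control, KD and OE embryos at 12 hpf. The authors aligned reads with STAR 2.7.7a and SAMtools 1.11 to GRCz10 and found editing sites with REDiscover, requiring parents homozygous at the site, at least 10 reads and a changed base in at least 20% of RNA reads. The deposited lists give the frequency of each site as a fraction, here printed as percent. Sites at different stages were matched by chromosome, position and change, and placed in the 3′-UTR windows the study listed. The upstream end of a window was taken as its 5′ end on the strand of the gene.

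For 12 hpf the authors counted reads per gene with HTSeq 0.11.2 and compared groups with DESeq2 in R 3.6.3. Their deposited tables hold, per gene, a mean normalized count (a score scaled by the authors' size factors), the log2 fold change, its standard error, and p-values before and after adjustment. These columns are the authors' own comparisons and were used as deposited, in the absence of per-library values in the files used. The depth of each library is therefore unknown, and no count model was fitted. Reads on no annotated feature made up 88.8% to 89.5% of the mean normalized counts and were left out. Intervals are 1.96 standard errors on either side.

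Gene IDs were named with a table of symbols, which named 29200 of 32519 IDs. Of 97 list symbols 58 matched by symbol, 38 by the symbol shared by a duplicated pair and 1 had no match. Text names the 3 genes, their list genes with a window, and at 12 hpf up to 3 called genes per list and direction by smallest adjusted p. For sites it names all of dusp4 and extl3, and of fgfr1a the 5 with the highest mean and the 3 largest increases and decreases. The members and lists were chosen with earlier results of these data known. Alternatives were the strand, a minimum of 30%, every change, a window wider by 5000 bp, distances of 50 and 500 bp, adjustment over all genes with a p or with a mean count of at least 10, thresholds of 0.01 and of an absolute log2 fold change over 1, and fold changes relative to the 500 genes of like count, which the outermost 500 genes at either end did not receive, a choice made on simulated data. Computations used matplotlib 3.10.9, pandas 2.3.3, scipy 1.17.1 and numpy 2.4.6 in Python 3.11.15, and the functions were tested on simulated data.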

Additional observations from a re-analysis of the deposited data

How the results depend on the processing

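Of 69 alternative values for the windows 54 stayed close to the reported ones, that is within 1.5 times for counts and within the 95% interval for medians and shares. With sites of at least 30% only, fgfr1a kept 41 sites at 3.5 hpf, 35 at 5.3 hpf and 28 at every stage, dusp4 kept 5 at the 16-cell stage, 0 at 5.3 hpf and 0 at every stage, and extl3 kept 2 at 5.3 hpf. With every change counted, extl3 had 7, 13 and 8 sites in the order of the stages and 6 at every stage. The median of dusp4 at the 16-cell stage was 41.6% over the 2 sites listed at every stage. For extl3 the share of sites with another close by changed with the distance.

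At 12 hpf no alternative brought any of the 12 values past its threshold, and the lowest adjusted p was 0.089. Relative to the 500 genes of like count the direction of 3 values turned: ENSDARG00000011027 in OE (0.34), ENSDARG00000011190 in OE against KD (-0.12) and extl3 in OE against KD (-0.016). All 3 had intervals that included 0.

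No paired analysis was possible because the tables used hold no values of single libraries, and for the same reason no fit without a given library was made. The precision of the editing frequencies is limited by the coverage of each site, which was not listed, and by 1 library per stage.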
